A study of Mus musculus with 4 samples.

Results

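Mature dendritic cells (maDC) were compared with haematopoietic stem cells (HSC), the cells at the start of the lineage, by sequencing of their small RNA. The comparison uses 2 of the 4 mouse samples, 1 library each, and takes every mature miRNA in the deposited table whose level reached 100 ppm in either library, which were 180 of 1078 miRNAs. A level in ppm is a miRNA's deposited value, summed over its hairpins, per 1000000 of the library's total. All mice were of the C57BL/6J strain. For HSC, bone marrow was sorted for c-Kit+ Sca1+ Lineage- cells with a purity above 95%, and the labels describe no culture of them. For maDC, bone marrow mononuclear cells depleted of red cells, from mice 5 to 6 weeks old, were grown in GM-CSF (10 ng/mL) with IL-4 (1 ng/mL), given 10 ng/mL LPS from day 4 and selected at day 8 with beads against CD11c, an integrin chain of dendritic cells. The pair therefore differs in stage, culture, cytokines, LPS and method of selection, and these cannot be told apart here. Values of the immature cells (imDC, the same cytokines for 6 days with no LPS) and of regulatory cells (DCreg, maDC kept for at least 7 days on splenic stroma) are given beside some results. With 1 library per cell type no difference has a replicate check, and no p-value is given.

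A miRNA is cut from a hairpin precursor by Drosha and Dicer, and 1 of its arms, 5p or 3p, is mostly retained in an Argonaute protein. It then represses mRNAs that pair with its seed, bases 2 to 8 from the 5′ end, so that miRNAs with the same seed share many targets. Toll-like receptors, which sense LPS, activate NF-kB, and NF-kB in turn drives transcription of several miRNA genes, among them the gene of miR-155. Other miRNAs are known as marks of a lineage, such as miR-451 and miR-144 of red cells and miR-223 of granulocytes and monocytes.

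The miRNAs that were higher in maDC and on which the results turn are shown first, from RefSeq (GRCm38.p6), 5′ to 3′, with the seed in capitals. miR-132-3p and miR-212-3p share a seed. The 2 miR-146 and the 2 miR-99 sequences also share one within each pair, but 1 member of each pair was higher and the other lower in maDC. let-7f-5p, which differed little between the libraries, is set beside let-7e-5p, which differed most among the let-7 miRNAs.
miR-9-5p: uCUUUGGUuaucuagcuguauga
miR-9-3p: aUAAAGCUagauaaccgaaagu
miR-155-5p: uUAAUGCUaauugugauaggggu
miR-132-3p: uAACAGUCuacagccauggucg
miR-212-3p: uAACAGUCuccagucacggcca
miR-146b-5p: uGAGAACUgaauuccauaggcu
miR-146a-5p: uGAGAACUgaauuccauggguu
miR-221-3p: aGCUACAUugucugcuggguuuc
miR-210-3p: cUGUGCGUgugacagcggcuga
let-7e-5p: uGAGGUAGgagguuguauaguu
let-7f-5p: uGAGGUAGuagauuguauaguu
miR-99b-5p: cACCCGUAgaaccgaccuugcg
miR-99a-5p: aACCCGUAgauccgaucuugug

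The second set, shown for miRNAs and families whose tested list members were lower in maDC, holds red cell miRNAs and the families of miR-17-92, miR-15 and miR-30. miR-25-3p, miR-92a-3p and miR-363-3p have 1 seed, miR-17-5p and miR-93-5p another and miR-15b-5p and miR-16-5p one of their own.
miR-451: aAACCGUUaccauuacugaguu
miR-144-3p: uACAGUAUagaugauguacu
miR-25-3p: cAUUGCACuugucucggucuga
miR-92a-3p: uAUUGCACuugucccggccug
miR-363-3p: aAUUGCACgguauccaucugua
miR-17-5p: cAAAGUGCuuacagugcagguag
miR-93-5p: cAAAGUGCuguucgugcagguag
miR-15b-5p: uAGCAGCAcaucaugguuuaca
miR-16-5p: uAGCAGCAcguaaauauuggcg
miR-30a-5p: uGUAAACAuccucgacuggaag

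The deposited values summed to 4226458 in HSC and 4475569 in maDC. The lists of unique sequences deposited for the same libraries held 6277096 and 6572858 reads, of which an exact-match recount placed 82.8% and 84.0% on a miRNA. Recounted folds below carry an exact 95% interval, and every interval covers the counting error of reads only, not the spread between libraries. Amplified reads with no molecular identifier may be copies of 1 molecule, so the intervals may be too narrow even for that. The floor (3 counts) is a fixed limit and measures no error. In both libraries 22 nt was the commonest read length, but reads of 20 nt or less made up 13.9% in HSC and 9.43% in maDC.

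Of the 180 miRNAs, 39 were at least 2-fold higher in maDC, which is 21.7%, and 88 were at least 2-fold lower, which is 48.9%. The other 53 lay between. At 10-fold, 16 were higher and 36 lower. The median log2 ratio of maDC over HSC was -0.97, so the typical miRNA held a smaller share of the maDC library, while some abundant ones held more. The 10 most abundant miRNAs held 61.8% of the HSC values and 70.1% of the maDC values. How the libraries are scaled moves all ratios together: scaling by the trimmed mean of log ratios raised every log2 ratio by 0.86 and gave 51 higher and 66 lower, and scaling by the median of ratios raised them by 0.93 and gave 55 and 64. In the recounted reads 132 miRNAs reached 100 ppm, of which 28 (21.2%) were higher and 63 (47.7%) lower. Of the 127 differing miRNAs, 116 had at least 20 recounted reads over both libraries, and 115 of those had the same direction in the recount. Only 89 of the 116 also reached 2-fold and 100 ppm there, and the recount uses the same libraries.

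**Figure D1:**
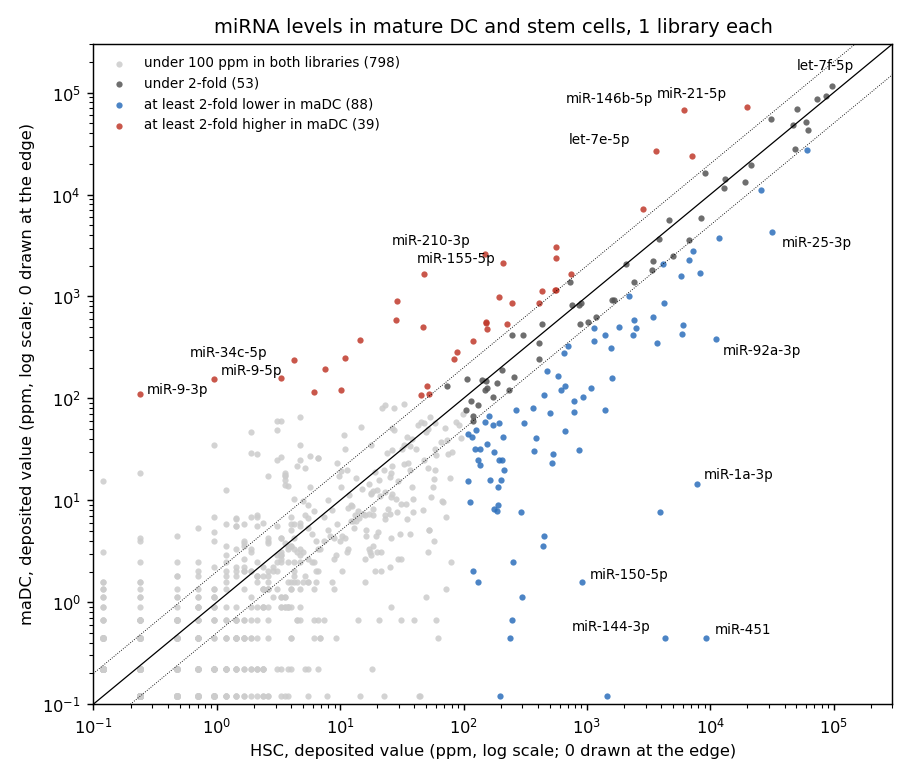
Level of each miRNA in the HSC library (x axis, ppm, log scale) against the maDC library (y axis, ppm, log scale), with values of 0 drawn at the edge. The solid line marks equal levels and the dotted lines 2-fold; 36 of the 88 lower miRNAs (blue) and 16 of the 39 higher ones (red) lie beyond 10-fold, and miR-451 and miR-144-3p lie lowest among those labelled.

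Markers of the 2 cell types were first set against the labels. Of the 14 miRNAs listed for stem and progenitor cells, 7 reached 100 ppm, of which 3 were higher and 4 lower in maDC, with a median log2 ratio of -1.11. Over all 180, 21.7% were higher and 48.9% lower, with a median of -0.97. The list's share of lower members and its median thus lay near those of all miRNAs. Its median member, miR-10a-5p, was at -0.24 and -0.17 with the scalings by ratios. miR-196b-5p, encoded on chr6:52230081-52230165 within an annotated exon of Hoxa9 and active in progenitors, was 251 ppm in HSC and 2.46 ppm in maDC. Its recounted fold was 89.7 in favour of HSC (45.2 to 209). miR-196b-5p was thus close to the floor in maDC. miR-99a-5p was 175 ppm in HSC and 8.27 ppm in maDC, recounted fold 20.5 (13.8 to 31.7). miR-130a-3p was 372 and 30.4 ppm, and no recounted read was given to it. miR-10a-5p, encoded in the Hoxb cluster, was 2193 and 1018 ppm, which came under 2-fold with either scaling by ratios. miR-126-3p, which is known to restrain cycling of stem cells and is also an endothelial miRNA, was 49.2 ppm in HSC and 1.12 ppm in maDC. Apart from miR-10a-5p, these members were far below their HSC level in maDC.

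The 3 members that ran the other way belong to a cluster that is known to be expressed in stem cells. let-7e-5p was 3606 ppm in HSC and 6943, 26478 and 51264 in imDC, maDC and DCreg. Its recounted fold of maDC over HSC was 8.60 (8.42 to 8.78). miR-125a-5p, whose hairpin lies with that of let-7e within 10 kb on chr17:17830352-17830879, in introns of Spaca6, was 45.4 ppm in HSC and 108 ppm in maDC, recounted fold 2.59 (2.11 to 3.18). miR-99b-5p was 195 ppm in HSC and 755, 987 and 2497 in imDC, maDC and DCreg, recounted fold 5.35 (4.88 to 5.87). Each of the 3 was lowest in HSC and highest in DCreg. The 4 members that also reached 100 ppm in the recount had a median of 0.68 there and 0.61 in the deposited values, against -1.11 for all 7, so the sign depends on which members are kept.

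The HSC library also held miRNAs of other cell types. Those of the red cell list summed to 15680 ppm in HSC and 23.8, 6.03 and 3.67 in imDC, maDC and DCreg. All 5 tested members were lower in maDC, against 48.9% of all 180. The list's median log2 ratio was -12.92, or -11.10 with the member at 0 set to its bound, against -0.97 for all 180. miR-451, which Ago2 cuts from its hairpin in place of Dicer, was 9189 ppm in HSC and 0.447 ppm in maDC, which is 2 units of the deposited value. The recount found 29026 reads in HSC and 0 in maDC, at least 10281-fold lower against the floor. miR-144-3p, from the hairpin beside that of miR-451 on chr11:78073005-78073241, was 4328 and 0.447 ppm, with 14059 recounted reads in HSC and 0 in maDC. miR-144-5p was 1468 ppm in HSC and 0 in maDC, at least 2191-fold lower. Red cells were depleted before the DC cultures, and HSC were sorted for c-Kit+ Sca1+ Lineage- cells. The part of either step in these differences was not tested.

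miRNAs of muscle summed to 8678 ppm in HSC and 45.8 ppm in maDC, of which miR-1a-3p made up 7773 and 14.3 ppm. In the recount the level of miR-1a-3p was 22172 ppm in HSC and 43.1 ppm in maDC. Its recounted fold was 515 in favour of HSC (453 to 587). miR-206-3p was 858 and 31.3 ppm. miR-1b-5p, listed at 3906 and 7.60 ppm, is the reverse complement of miR-1a-3p over 21 bases and had 4 and 9 recounted reads. Its deposited value is thus not read as separate evidence here. The counts of differing miRNAs and of seed pools still include it, as they include miR-3074-5p, miR-374c-3p and miR-3107-3p. Those are likewise reverse complements of another listed miRNA over most of their length. The 9 stromal members summed to 1398 ppm in HSC and 236 ppm in maDC, and the 2 endothelial ones to 121 and 2.46 ppm. The summed level of each of the endothelial, stromal, muscle and red cell lists was thus higher in HSC, but only 3 stromal members and neither endothelial one reached 100 ppm, and miR-199a-3p and miR-199b-3p among the 3 are 1 sequence. miR-133a-3p and miR-144-5p were at 0 in maDC and miR-218-5p, a stromal member, at 0 in HSC. In bulk RNA fewer cells of a type and less RNA per cell cannot be told apart, and the part of such cells in the other differences was not tested.

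miR-150-5p, a miRNA of mature lymphocytes that targets Myb, was 914 ppm in HSC and 17.1, 1.56 and 2.20 in imDC, maDC and DCreg. The recounted reads were 2514 in HSC and 2 in maDC, a fold of 1336 with an interval of 369 to 11036. The other arm, miR-150-3p, was 197 ppm in HSC and 0 in maDC, at least 293-fold lower. Of the 7 tested lymphoid miRNAs 4 were lower, a share near the 48.9% of all 180, and none was higher, with a median log2 ratio of -1.59; with either scaling by ratios 3 were lower and 1 higher. miR-181a-5p, which sets the sensitivity of T cell receptor signalling in thymocytes, was 6783 ppm in HSC and 2253 ppm in maDC, a difference that shrank to under 2-fold with either scaling by ratios. miR-342-3p stood at 2070 and 2098 ppm, and miR-342-5p, at 74.1 and 132 ppm, passed 2-fold with those scalings.

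**Figure D2:**
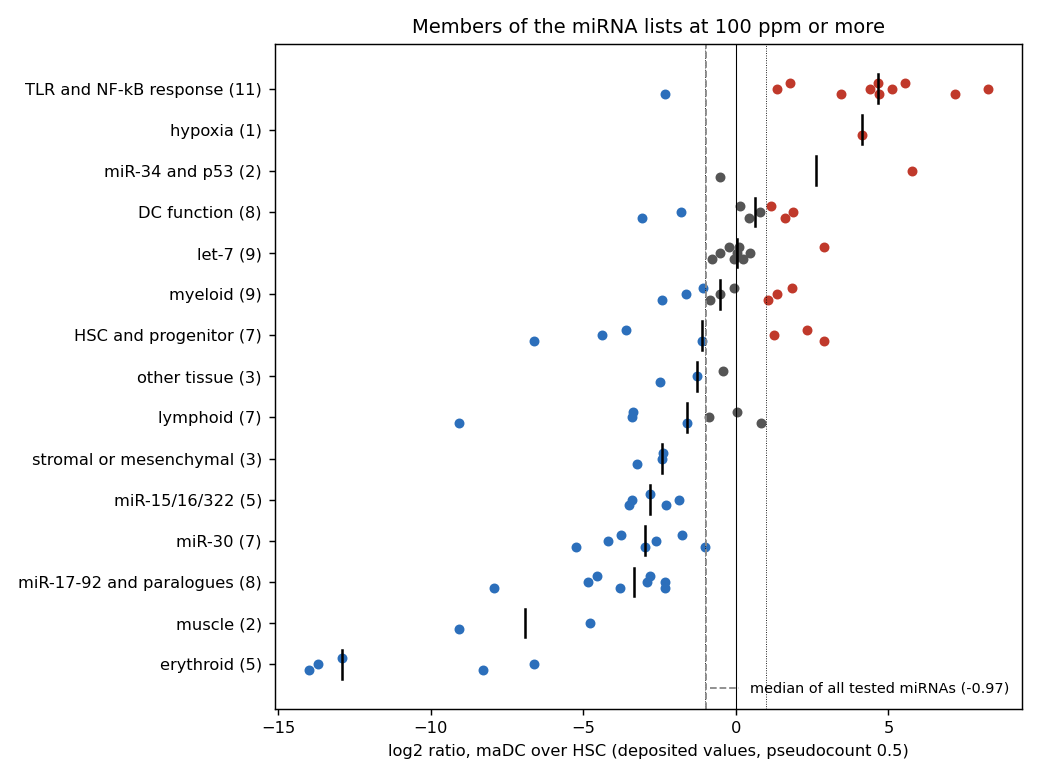
Log2 ratio of maDC over HSC (x axis) for each list member at 100 ppm or more, 1 row per list with the number of members, coloured red when at least 2-fold higher, blue when lower and grey between; the black bar is the list's median. The NF-kB row lies to the right with 1 exception, and the miR-15, miR-30, miR-17-92, muscle and red cell rows lie wholly to the left of 0.

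The miRNAs tied to Toll-like receptor and NF-kB signalling made up 7 of the 10 largest increases. Those 7 are not separate genes, since they include both arms of miR-9 and 3 arms from the neighbouring mir-212 and mir-132 hairpins. Of the 11 tested members of the list, 10 were higher in maDC and 1 was lower, with a median log2 ratio of 4.65. Over all 180, 21.7% were higher and the median was -0.97. In the recount 9 of 10 were higher. They summed to 17780 ppm in HSC and 102446 ppm in maDC, and to 8352 and 35118 ppm of recounted reads. The list was written with earlier results of these libraries known, so its direction is no independent evidence.

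miR-155-5p, which promotes dendritic cell and lymphocyte activation and targets Ship1, was 47.6 ppm in HSC and 2609, 1651 and 141 in imDC, maDC and DCreg. Its recounted fold of maDC over HSC was 37.6 (32.0 to 44.4), from 154 and 6154 reads. Its hairpin lies on chr16:84714140-84714204 in an exon of the noncoding gene Mir155hg. The level was thus already high in imDC, which received no LPS, and was low again in DCreg.

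miR-9-5p, which lowers NFKB1 and is induced by LPS in monocytes, was 0.946 ppm in HSC and 739, 156 and 6.24 in imDC, maDC and DCreg. Its recounted fold was 228 (110 to 567), from 7 reads in HSC and 1693 in maDC. miR-9-3p, the other arm, was 0.237 ppm in HSC and 119, 110 and 5.50 in imDC, maDC and DCreg. Its recounted fold was 259 (101 to 954). Both arms were close to the floor of 0.710 ppm in HSC, so the intervals are wide.

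miR-132-3p and both arms of miR-212 come from neighbouring hairpins on chr11:75173388-75173747, and all 3 were higher in maDC. miR-132-3p, a CREB-induced miRNA that targets p300, was 14.4 ppm in HSC and 455, 374 and 67.9 in imDC, maDC and DCreg, recounted fold 25.9 (19.0 to 36.1). miR-212-3p was 3.31 ppm in HSC and 159 ppm in maDC, recounted fold 44.6 (24.04 to 93.6). miR-212-5p was 7.57 and 193 ppm, recounted fold 29.0 (18.8 to 47.2). The 3 intervals overlapped one another.

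miR-147-3p, which is induced by Toll-like receptor ligands in macrophages, was 28.2 ppm in HSC and 745, 589 and 82.2 in imDC, maDC and DCreg, recounted fold 13.6 (11.3 to 16.6). miR-221-3p and miR-222-3p, from hairpins beside each other on chrX:19146294-19146971, are known to target Kit and the cell cycle inhibitor p27. miR-221-3p was 7093 ppm in HSC and 24002 ppm in maDC, recounted fold 3.41 (3.36 to 3.47). miR-222-3p was 2839 and 7240 ppm, recounted fold 2.62 (2.56 to 2.69). Kit is also a receptor on which HSC were sorted. Its level was not measured here, and a link between it and these miRNAs was not tested.

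miR-146a-5p and miR-146b-5p, whose shared seed was shown above, target the adaptors Traf6 and Irak1 and differed in opposite directions. miR-146b-5p, on chr19:46342762-46342870 in an intron of Mfsd13a, was 6182 ppm in HSC and 89225, 67585 and 36546 in imDC, maDC and DCreg. Its recounted fold was 8.70 (8.51 to 8.89). miR-146a-5p was 1561 ppm in HSC and 1105, 309 and 1115 in imDC, maDC and DCreg, recounted fold 4.55 in favour of HSC (4.27 to 4.84). Together the pair held 0.774% of HSC and 6.79% of maDC values, so that the pool with this seed was 8.77-fold larger in maDC. In the recount the pool was 5.53-fold larger, and it held 2716 and 15022 ppm.

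Myeloid miRNAs did not move in 1 direction. Of 9 tested, 3 were higher and 3 lower, with a median log2 ratio of -0.52, which became 0.34 and 0.41 with the scalings by ratios. Over all 180, 21.7% were higher and 48.9% lower, with a median of -0.97. miR-21-5p, which Stat3 and AP-1 induce and which lowers Pdcd4, was 19982 ppm in HSC and 71808 ppm in maDC, recounted fold 3.79 (3.75 to 3.82). miR-22-3p was 436 and 1122 ppm, recounted fold 2.53 (2.38 to 2.70). miR-24-3p was 557 and 1151 ppm, recounted fold 2.21 (2.16 to 2.25); miR-3074-5p, listed at 553 and 1161 ppm, is its reverse complement over 20 bases with 34 and 3 recounted reads.

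miR-223-3p, which restrains granulocyte production and the NLRP3 inflammasome, was 3438 ppm in HSC and 2264, 635 and 669 in imDC, maDC and DCreg, recounted fold 4.93 in favour of HSC (4.71 to 5.15). miR-142-3p, found in all blood lineages, was 1133 ppm in HSC and 366 ppm in maDC. That difference fell under 2-fold with either scaling by ratios. The abundant arm, miR-142-5p, was 18959 and 13196 ppm. The highest levels among the myeloid members were thus those of miR-21-5p in both libraries.

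Among miRNAs listed for dendritic cell function, 3 of 8 were higher and 2 lower, with a median log2 ratio of 0.62, and 5 or 6 were higher with the scalings by ratios. The shares over all 180 were 21.7% higher and 48.9% lower, and the median was -0.97. miR-148a-3p, which targets CaMKII and limits antigen presentation, was 783 ppm in HSC and 93.4 ppm in maDC, recounted fold 11.8 (10.6 to 13.2). Of its relatives with the same seed, miR-148b-3p was also lower, at 581 and 167 ppm, a call lost with either scaling by ratios, and miR-152-3p was 753 and 826 ppm. In the miR-29 family, which targets collagens and Mcl1, miR-29a-3p was 31270 ppm in HSC and 54571 ppm in maDC, and miR-29c-3p 748 and 1649 ppm, recounted fold 2.19 (2.07 to 2.31). miR-511-3p, from an intron of the mannose receptor gene Mrc1 (hairpin chr2:14261003-14261081), was listed at 152 and 564 ppm, but no read matched it exactly. The list therefore held increases and decreases of different families.

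**Figure D3:**
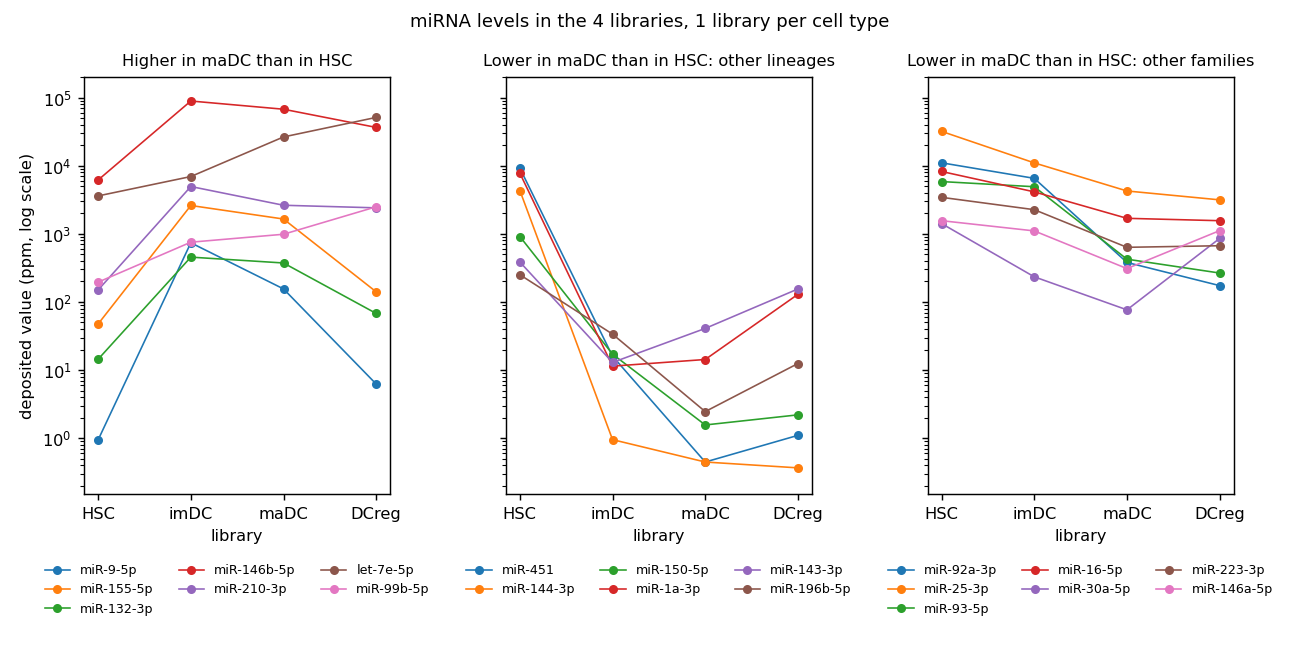
Deposited level (y axis, ppm, log scale) of 20 miRNAs in the 4 libraries (x axis), 1 point per library and lines joining the points of 1 miRNA. miR-155-5p, miR-9-5p and miR-132-3p were high in imDC and maDC and lower in DCreg, while miR-451 and miR-144-3p were high in HSC alone among the 4.

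Outside the NF-kB list the largest increase was that of miR-34c-5p, of the family that p53 induces. It was 4.26 ppm in HSC and 127, 237 and 202 in imDC, maDC and DCreg, recounted fold 56.4 (32.8 to 106). miR-34b-5p, from the hairpin beside it (chr9:51103034-51103645), was 0 in HSC and 15.4 ppm in maDC, at least 21.7-fold higher. miR-34a-5p, encoded elsewhere, was 14.7 and 52.1 ppm. Of these 3 only miR-34c-5p reached 100 ppm. The other listed miRNAs tied to p53 were not 2-fold higher: miR-192-5p was 8392 and 5837 ppm, miR-194-5p 58.9 and 57.4 ppm, miR-215-5p 8.99 and 2.68 ppm and miR-145-5p 29.6 and 2.68 ppm.

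miR-210-3p, induced by hypoxia through HIF-1, was 150 ppm in HSC and 4955, 2630 and 2410 in imDC, maDC and DCreg, recounted fold 14.03 (12.6 to 15.6). miR-184-3p was 10.9 ppm in HSC and 122, 248 and 149 in imDC, maDC and DCreg, recounted fold 24.1 (17.4 to 34.5). miR-5126 was listed at 28.9 ppm in HSC and 28.2, 905 and 24.6 in imDC, maDC and DCreg, a 31.4-fold difference. The recount gave it 22 and 99 reads, a fold of 4.23 (2.65 to 7.06). In the deposited values the first 2 of these 3 were high in every DC library, and miR-5126 in maDC alone. The recounted levels of miR-5126 were 4.23, 5.12, 17.9 and 4.58 ppm in HSC, imDC, maDC and DCreg. They were thus highest in maDC but under 100 ppm in every library.

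The let-7 family, which grows more abundant as cells differentiate and represses Lin28, Hmga2 and Ras, held 45.7% of the HSC values and 47.7% of the maDC values. Its 9 listed members made up more of the recounted reads, 680799 ppm in HSC and 729159 ppm in maDC. Among its 9 tested members let-7e-5p alone reached 2-fold. let-7f-5p was 97889 ppm in HSC and 116094 ppm in maDC, and let-7b-5p 87051 and 92999 ppm. let-7i-5p was 48385 and 28079 ppm, and let-7g-5p 62014 and 42997 ppm. The median log2 ratio was 0.05, which lies above the -0.97 of all 180, and with the scalings by ratios it was 0.91 and 0.98 with 3 and 4 members higher. Members differ by few bases, and the sources used here do not give how reads that fit several members were assigned.

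miRNAs of the miR-17-92 cluster and its paralogues, which Myc drives and which promote proliferation, were lower in maDC. All 8 tested members of the list were lower, in the deposited values, in the recount and with each scaling, with a median log2 ratio of -3.35. The share of all 180 that was lower was 48.9%, and their median was -0.97. The list leaves out miR-17-3p, an arm of the same cluster. Of the 4 tested arms of the mir-17 cluster on chromosome 14, 3 were lower and miR-17-3p was under 2-fold. All 13 members of the list together summed to 53190 ppm in HSC and 24823, 5818 and 4125 in imDC, maDC and DCreg. miR-92a-3p was 11043 ppm in HSC and 6531, 380 and 174 in imDC, maDC and DCreg, recounted fold 43.6 in favour of HSC (41.2 to 46.2). miR-363-3p, of the X-linked paralogue, was 298 ppm in HSC and 1.12 ppm in maDC, recounted fold 294 (100.4 to 1430). These decreases covered both the autosomal and the X-linked copies. The 3 hairpins on chr5:138165321-138165818 lie in Mcm7, a gene of the replicative helicase, and all 5 of their tested arms were lower. miR-25-3p among them was 31967 ppm in HSC and 11014, 4263 and 3157 in imDC, maDC and DCreg, recounted fold 7.40 (7.27 to 7.54). miR-93-5p was 5857 ppm in HSC and 4920, 425 and 266 in imDC, maDC and DCreg, recounted fold 13.1 (12.4 to 13.9). The deposited levels stood in the order HSC, imDC, maDC, DCreg for miR-92a-3p, miR-25-3p and miR-93-5p and for the list's sum. In the recount miR-93-5p broke that order, with 3059 ppm in HSC and 3436 ppm in imDC.

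The group of miR-15, miR-16 and miR-322, which targets cyclins and Bcl2, was lower in all 5 tested members, with a median log2 ratio of -2.81. Scaled by the median of ratios, miR-15a-5p came under 2-fold. The list holds 5p arms only. Of the 3p arms outside it, miR-15b-3p and miR-16-1-3p were lower, while miR-322-3p, at 1607 and 918 ppm, was under 2-fold. miR-15b-5p was 5996 ppm in HSC and 1742, 525 and 986 in imDC, maDC and DCreg, recounted fold 11.1 (10.6 to 11.7). Its hairpin lies with mir-16-2 on chr3:69009772-69009996 in an intron of Smc4, a condensin gene. miR-16-5p, made from this and a second locus in Dleu2, was 8239 and 1691 ppm, recounted fold 4.58 (4.48 to 4.68). The miR-30 group was lower in all 7 tested members, with a median of -2.97. These members include both arms of miR-30a and both of miR-30e. miR-30d-5p and miR-30e-5p among them came under 2-fold with the scalings by ratios. Both groups stand against 48.9% lower over all 180 miRNAs, with a median of -0.97. miR-30a-5p was 1415 ppm in HSC and 234, 76.6 and 856 in imDC, maDC and DCreg, recounted fold 17.7 (15.6 to 20.2). miR-30d-5p, at 4135 and 2059 ppm, sat at the 2-fold line and its recounted fold was 1.88 (1.83 to 1.94).

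Summed by seed, 137 pools reached 100 ppm in either library, of which 34 were at least 2-fold larger in maDC and 60 smaller. The pool of miR-25, miR-92a and their 4 relatives was 4.34% of HSC and 0.469% of maDC values, a 9.27-fold difference (10.5-fold in the recount). The pool of miR-21-5p was 2.00% and 7.18%. That of miR-221 and miR-222 was 0.999% and 3.13%. In only 2 pools were tested members at least 2-fold apart in both directions, the miR-146 pool and that of miR-99b-5p (higher) and miR-99a-5p (lower).

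**Figure D4:**
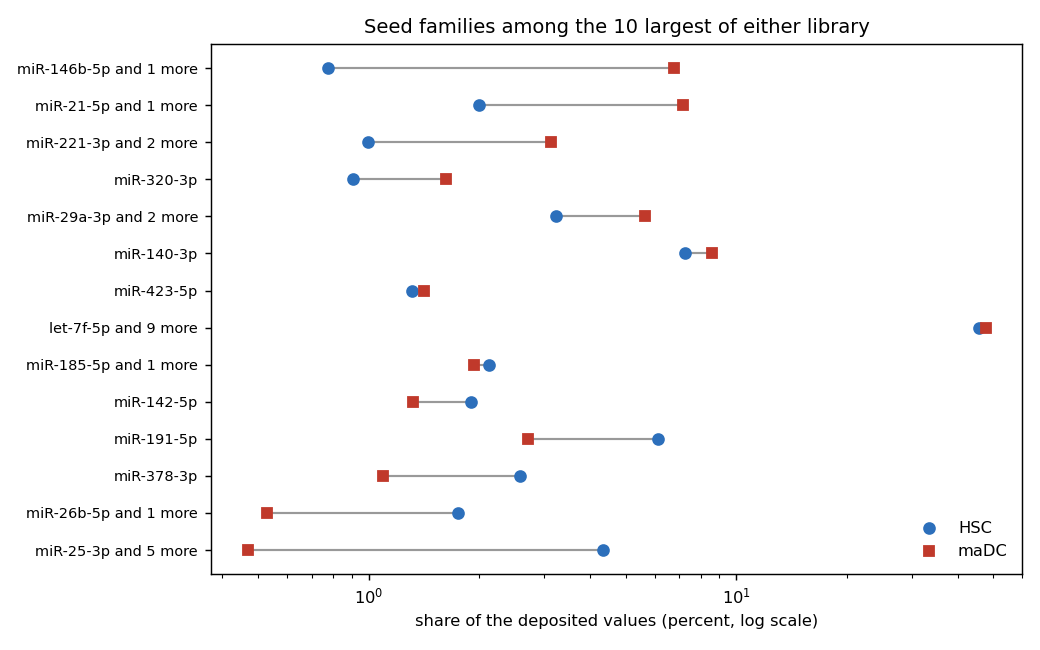
Share of the deposited values (x axis, percent, log scale) held by each seed family that is among the 10 largest in HSC (circles) or maDC (squares), named by its most abundant member. The let-7 family is near 46% and 48%, the miR-146 family moves from 0.774% to 6.79% and the miR-25 family from 4.34% to 0.469%.

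Which arm of a hairpin was retained was compared for 30 hairpin names with both arms at 100 ppm or more in either library. The same arm was the larger in both libraries for 27 of them. The share of the 5p arm was over 10 points higher in maDC for 7 and over 10 points lower for 8. Some of these rest on few reads. miR-144 had 0 recounted reads in maDC, and miR-150 had 2, with an interval of 15.8% to 100% for its 5p share. miR-9 had 11 in HSC (30.8% to 89.1%) and miR-486 had 34 in maDC (27.2% to 62.1%). For miR-30e it was 68.1% in HSC and 89.6% in maDC, and 68.4% and 91.3% of recounted reads. For miR-17 it was 43.1% and 19.9%, with the 3p arm the larger in both (recount 44.2% and 20.6%). For miR-322 it was 32.8% and 7.44% (recount 41.7% and 10.0%). Differences for miR-3107, miR-181c, miR-223 and miR-9 were not found in the recount to this extent: for miR-223 the 5p share was 17.0% and 34.1% in the deposited values but 12.8% and 16.6% of recounted reads. For miR-3107, whose arms are reverse complements over 20 bases, it was 64.8% and 88.9% but 98.8% and 100% of recounted reads, of which maDC had 15.

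The ends of reads were compared for 64 miRNAs with at least 1000 recounted reads in both libraries. An adenosine that the hairpin does not encode, as added by terminal nucleotidyl transferases, stood at the 3′ end of a median 5.88% of a miRNA's reads in HSC and 8.14% in maDC. Its share was higher in maDC for 53 miRNAs and lower for 10, and for 41 and 2 the exact 95% intervals lay apart. For an unencoded uridine the median was 4.70% and 4.46%, with 19 miRNAs higher and 45 lower, and 9 and 33 with intervals apart. Reads ending short of the annotated 3′ end made up a median 23.8% in HSC and 10.2% in maDC, lower in maDC for 52 of 64; this feature was added after its values were seen. Over all reads with classified ends, short 3′ ends made up 18.4% in HSC and 18.6%, 9.40% and 15.8% in imDC, maDC and DCreg. Reads of 20 nt or less made up 13.9% in HSC and 16.6%, 9.43% and 16.8% in imDC, maDC and DCreg. By both measures maDC was the lowest library, with HSC near imDC or DCreg. The part of read length in these end differences was not tested.

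Single miRNAs went further than these medians. The tailed forms that follow stand for these changes, with the base that the hairpin does not encode in capitals. The form of miR-26a-5p with 1 added adenosine was 3.75% of its reads in HSC and 12.3% in maDC, and all its A-tailed reads were 8.68% (8.40 to 8.97) and 21.9% (21.1 to 22.6). The U-tailed form of miR-223-3p was 6.04% and 16.6%, and all its U-tailed reads 19.98% (19.2 to 20.8) and 39.1% (37.1 to 41.2). The U-tailed form of miR-24-3p ran the other way, at 43.2% in HSC and 23.3%, 27.5% and 31.3% in imDC, maDC and DCreg.
miR-26a-5p with A: uucaaguaauccaggauaggcuA
miR-223-3p with U: ugucaguuugucaaauaccccaU
miR-24-3p with U: uggcucaguucagcaggaacagU

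A moved 5′ end changes the seed. It was about as often more common in maDC (31 miRNAs) as in HSC (33), but a few miRNAs differed widely. For miR-142-3p the annotated 5′ end held 20% of reads in HSC and 5.69% in maDC, while the end 1 base further in held 75.0% and 88.7%. Common forms of both starts follow. For miR-101a-3p reads that began 1 base earlier were 38.7% in HSC and 61.5%, 60.8% and 52.1% in imDC, maDC and DCreg. For miR-140-3p, among the 10 most abundant in both libraries, the annotated start held 32.6% of reads in HSC and 46.9% in maDC.
miR-142-3p, annotated start: uguaguguuuccuacuuuaugg
miR-142-3p, 1 base in: guaguguuuccuacuuuaugg
miR-140-3p, annotated start: uaccacaggguagaaccacgga
miR-140-3p, 1 base in: accacaggguagaaccacgga

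**Figure D5:**
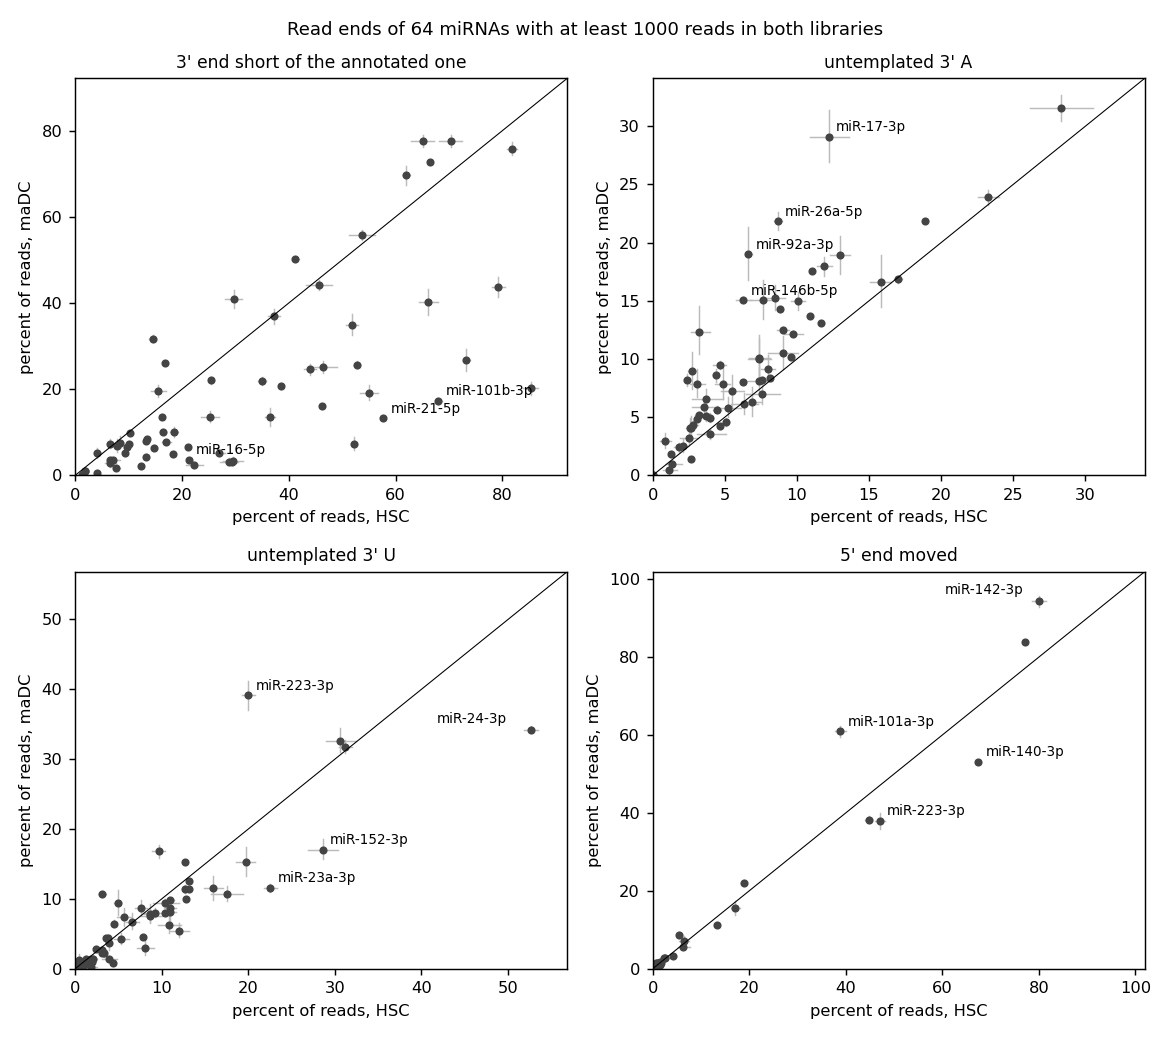
Percent of a miRNA's reads with a given end in HSC (x axes) and maDC (y axes) for 64 miRNAs, with exact 95% intervals in grey and a line of equality. Points lie mostly under the line for short 3′ ends and mostly over it for added A, while miR-101a-3p and miR-142-3p lie above it and miR-140-3p below it for moved 5′ ends.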

How the data were processed

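Small RNA libraries of 4 mouse cell types were sequenced on Solexa, per the labels' protocols, after gel purification and 12 PCR cycles; other RNA classes (ribosomal, transfer, messenger, small nuclear and nucleolar) were filtered out and the rest compared with miRBase release 19. The authors deposited a score per mature miRNA and hairpin, whole numbers whose normalisation the sources used here do not give, so no count model was used. They also deposited unique sequences with copy numbers, per the file headers. The sources used here do not give the aligner or its mismatches.

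The 1195 hairpin entries were summed to 1078 miRNAs and scaled to 1000000 per library (ppm). A miRNA was called at a ratio of at least 2, with a pseudocount of 0.5 on the deposited score, and 100 ppm in either library; with 1 library per cell type there was no test. Folds in the text without "recounted" are plain ratios of ppm. Reads were recounted by exact match over 16 nt or more, starting within 2 nt of the annotated 5′ end, with at most 5 unmatched 3′ bases, reads with several equal matches being divided, and their folds carry exact conditional 95% (Clopper-Pearson) intervals. The recount was tested on simulated data. Sequences came from RefSeq (857 of 1064 distinct sequences matched) and host genes from GENCODE M21, both on GRCm38.p6. Hairpins within 10 kb formed a cluster. Python 3.11.15, numpy 2.4.6, scipy 1.17.1 and matplotlib 3.10.9 were used.

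Named miRNAs were the 10 largest ratios each way, the 10 most abundant per library, members of 16 lists at 100 ppm (marker lists also under it), the 10 largest seed families, the 5 largest differences each way in arm share and in each read end, and the 5 commonest unassigned sequences per library; those on which the results turn are printed. The members and lists were chosen with earlier results of these data known.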

Additional observations from a re-analysis of the deposited data

Results flagged for a closer look

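Among reads given to no miRNA, the 5 commonest sequences of each library are not used by the comparison. In HSC they had 22595, 17464, 15284, 15058 and 15005 copies, against 870, 6822, 6863, 24698 and 139 in maDC. In maDC they had 24698, 15038, 12292, 12051 and 10143 copies, the first being the sequence with 15058 copies in HSC, and the other 4 had 45, 3065, 3195 and 5404 copies there. Of these 9 sequences, 17 to 22 nt long, 4 end in CCA, the bases added to mature tRNAs, and none matched a GENCODE M21 transcript exactly. For those 4 that search cannot decide a tRNA origin, since a transcript sequence need not hold bases added later. The 2 most unequal ones had 15005 copies in HSC and 139 in maDC (20 nt), and 45 in HSC and 15038 in maDC (18 nt). The 20-nt sequence with 15005 copies in HSC has the letters of a known 5′ adaptor for small RNA libraries, an identity read from the sequence and not tested. What the other sequences are was not tested either.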

How the results depend on the processing

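The median log2 ratio of -0.97 became -0.10 with the trimmed mean of log ratios, -0.033 with the median of ratios, -0.81 without the 5 most abundant miRNAs in the total and -0.82 with no level minimum. The counts of 39 higher and 88 lower became 76 and 169 at 10 ppm and 210 and 440 with no minimum, and at 4-fold 20 were higher. Scaling to all reads, merging names of 1 sequence, a pseudocount of 5 and both recounts left the counts within 1.5 times and the median between -0.97 and -0.89. The sign changed for the median of the stem and progenitor list (0.68 in the recount, where 4 members were left, whose deposited median was 0.61), for that of the myeloid list (0.34 and 0.41 with the scalings by ratios, which raise all ratios together) and for the median change in moved 5′ ends (-0.022 points, 0.0078 with at least 200 reads), for which the cause was not tested. With 1 library per cell type no library could be left out. No paired analysis was possible because each group has 1 library. Of the called miRNAs, 7 had no recounted read: miR-191-5p, miR-130a-3p, miR-181c-3p, miR-1895, miR-2182, miR-3968 and miR-511-3p. A level under 0.710 ppm in HSC or 0.670 ppm in maDC is under the floor of 3 units.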

Other observations

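miR-191-5p was listed at 61246 ppm in HSC and 27120 ppm in maDC, the largest level among the miRNAs that were at least 2-fold lower, a call lost with both scalings by ratios. Reads with 1 mismatch to it numbered 2118 and 471 and none matched exactly. miR-2182 was listed at 209 ppm in HSC and 2115 ppm in maDC, and miR-1895 at 47.1 and 497 ppm, with no read at 0 or 1 mismatches. miR-374-5p, at 523 ppm in HSC and 23.01 ppm in maDC, and miR-374c-3p, at 535 and 28.4 ppm, are reverse complements over 19 bases, and the recount gave the first 9775 and 555 reads and the second 110 and 27. miR-128-3p, a miRNA of neurons, was 2345 ppm in HSC and 421 ppm in maDC. Of the epithelial miR-200 family, miR-200c-3p was 108 and 44.9 ppm, a call lost with the scalings by ratios, while miR-200a-3p was 10.6 and 43.3 ppm, miR-200b-3p 17.7 and 35.1 ppm and miR-429-3p 3.55 and 17.2 ppm, all 3 under 100 ppm. miR-122-5p, of liver, was 104 and 77.3 ppm.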
